A study of Mus musculus with 11 samples.

Results

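The Hox genes of the mouse were examined as a family in chromatin accessibility data of 4 lymphoid cell types. They comprised the 39 protein-coding genes of the GENCODE M21 annotation of mm10 (GRCm38) that carry a Hoxa, Hoxb, Hoxc or Hoxd symbol with a number, out of 21938 protein-coding genes. A called peak was a member when it overlapped the body of one of these genes or the 5 kb on either side, which gave 48 peaks over 9 libraries. Peaks of different libraries that overlapped were merged into 16 intervals, out of 71400 in the whole series. An interval, a gene window (the gene body with 5 kb on each side) or a start site (1 kb on each side of any annotated start) is called open in a library when a peak of that library covers at least 1 bp of it.

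Hox genes encode homeodomain transcription factors that give cells their position along the body axis. They stand in a row in each of 4 clusters, and the order along the chromosome follows the order in which they are used from head to tail. Genes of the same number in different clusters are paralogues, and their proteins bind DNA together with the TALE homeodomain proteins of the Pbx and Meis families. Polycomb complexes keep clusters silent where they are not used, and trithorax complexes with the methyltransferase Kmt2a keep them active. In blood, genes of the Hoxa and Hoxb clusters, such as Hoxa9, Hoxa10 and Hoxb4, are known for their use in stem cells and early progenitors and for their decline as cells mature.

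ATAC-seq, which marks accessible DNA by the insertion of sequencing adapters with a transposase, was performed on cells sorted from C57BL/6 mice that the study's methods describe as 4 to 8 weeks old. From the thymus came CD4SP thymocytes (conventional CD4 single-positive T cells, 2 libraries) and NKT cells (innate-like T cells, enriched with a CD1d tetramer loaded with αGalCer, 2 libraries). From the bone marrow came CLP (common lymphoid progenitors, sorted as Lin-, IL-7Rα+, Flt3 high cells with intermediate cKit and Sca-1, 3 libraries) and ILCP (innate lymphoid cell precursors, sorted as Lin-, IL-7Rα+, α4β7+, eGFP+ cells, 2 libraries). No group carried a deletion or a treatment, but the eGFP gate of ILCP requires a reporter allele, and the methods list a Zbtb16 reporter line, Zbtb16-IRESGFPcre, which the label of the strain does not mention. NKT and ILCP express PLZF, the product of Zbtb16, while CD4SP and CLP served as their counterparts without it.

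The libraries held 33648 and 37909 peaks in CD4SP, 34701 and 38793 in NKT, 19343, 41535 and 40136 in CLP, and 26328 and 25771 in ILCP. CLP replicate 1 stood apart with the shortest list, so cluster differences between groups that hold CLP are also given without it. For sequencing depth, the study's methods state only an overall range, not a value per library, and a missing peak means that none was called, not that the site was closed. Each library pooled many cells, so a site open in few cells and one weakly open in many cannot be told apart. All 6 T lineage markers were open at their starts in all 4 thymic libraries. Of these, Cd3e, Cd3g and Cd4 were open in no bone marrow library, but Cd5 and Bcl11b were open in 4 of the 5 and Themis in both ILCP libraries. Of the 5 CLP markers, Flt3 was open in the 5 bone marrow libraries and in no thymic one, while Satb1 was open in all 9 libraries, Il7r in 8 (all but ILCP replicate 2), Kit in all 5 from bone marrow and in NKT replicate 2, and Dntt in CLP replicates 2 and 3 and CD4SP replicate 2. Zbtb16 was open in both NKT and both ILCP libraries, in CLP replicate 2 and in no CD4SP library. Tcf7 was open at its start in both CD4SP libraries and in no other, while its gene window was open in 8 libraries. Of the 4 NKT markers, Zbtb16 among them, 2 and 2 were open in CD4SP and 3 and 4 in NKT. In CLP 1, 2 and 1 of them were open, and in ILCP 2 and 2. Of the 6 ILCP markers, with Zbtb16 and Tcf7 among them, 5 were open in each thymic and each ILCP library. In CLP 3, 5 and 4 were open, so this list did not set ILCP apart. Markers of other cells were not uniformly without peaks. Cd79a, Elane and Cebpe had none at their starts in any library, while their gene windows were open in 9, 2 and 3 libraries. Mpo had one at its start in CLP replicate 2 and Csf1r in CLP replicate 3. The B lineage markers Ebf1 and Vpreb1 and the erythroid marker Klf1 were open at their starts in all 9 libraries and Pax5 in 6.

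Reference sequence is shown for 4 of the 16 Hox intervals, chosen because differences between cell types, or their absence, lie in them: Hoxa-2 (thymus), Hoxa-5 (CLP), Hoxd-4 (NKT, CLP and 1 ILCP library) and Hoxd-5 (all 4 cell types). Intervals are numbered along the chromosome within each cluster. Each line gives 200 bp of GRCm38.p6 from RefSeq within the interval, read 5′ to 3′ on the plus strand, with every CpG dinucleotide in capitals.
Hoxa-2, chr6:52191880-52192079, plus strand: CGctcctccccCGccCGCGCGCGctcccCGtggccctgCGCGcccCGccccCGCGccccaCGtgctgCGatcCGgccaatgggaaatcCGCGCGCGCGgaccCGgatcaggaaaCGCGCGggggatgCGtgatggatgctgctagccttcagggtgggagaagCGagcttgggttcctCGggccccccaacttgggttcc
Hoxa-5, chr6:52217506-52217705, plus strand: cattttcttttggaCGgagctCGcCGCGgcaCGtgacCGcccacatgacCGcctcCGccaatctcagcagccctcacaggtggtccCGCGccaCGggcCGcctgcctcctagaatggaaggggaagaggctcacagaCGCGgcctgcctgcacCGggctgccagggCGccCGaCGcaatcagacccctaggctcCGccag
Hoxd-4, chr2:74715884-74716083, plus strand: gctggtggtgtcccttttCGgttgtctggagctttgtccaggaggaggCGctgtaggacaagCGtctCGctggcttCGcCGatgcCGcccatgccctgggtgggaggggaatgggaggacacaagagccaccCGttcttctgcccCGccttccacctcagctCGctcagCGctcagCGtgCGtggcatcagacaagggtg
Hoxd-5, chr2:74749548-74749747, plus strand: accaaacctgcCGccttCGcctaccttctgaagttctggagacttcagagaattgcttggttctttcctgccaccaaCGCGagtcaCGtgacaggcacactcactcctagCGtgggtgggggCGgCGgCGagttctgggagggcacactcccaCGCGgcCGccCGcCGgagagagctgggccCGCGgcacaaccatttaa

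The Hoxa-2 stretch, next to the Hoxa4 start, held 27 CpG dinucleotides and was 73.5% G and C. The Hoxd-5 stretch held 16 at 62.5%, and the Hoxd-4 stretch, with the fewest of the 4, held 13 at 64.0%. The Hoxa-5 stretch was taken 53 bp from the midpoint of its interval, and the others at the midpoint.

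Few Hox genes had a called peak. In all, 18 of the 39 gene windows (46.2%) were open in at least 1 library, against 74.5% of all protein-coding genes, and 8 of 39 start sites (20.5%) against 64.0%. No Hox window and no Hox start site was open in all 9 libraries, which 40.5% of all gene windows and 31.8% of all start sites were. Genes with an open start were Hoxa3, Hoxa4, Hoxa7, Hoxa9, Hoxa10, Hoxb4 and Hoxd11. Other windows with a peak were those of Hoxa2, Hoxa6, Hoxa11, Hoxb3, Hoxb6, Hoxb7, Hoxd3, Hoxd4, Hoxd12 and Hoxd13. No peak lay in the windows of Hoxa5, Hoxa13, Hoxb1, Hoxb2, Hoxb5, Hoxb8, Hoxb9, Hoxb13, Hoxd1, Hoxd8, Hoxd9, Hoxd10 or any of the 9 Hoxc genes. Windows of neighbours overlap and long transcripts of Hoxa3, Hoxc5, Hoxd3 and Hoxd4 span other genes, so 1 peak can open several windows.

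**Figure D1:**
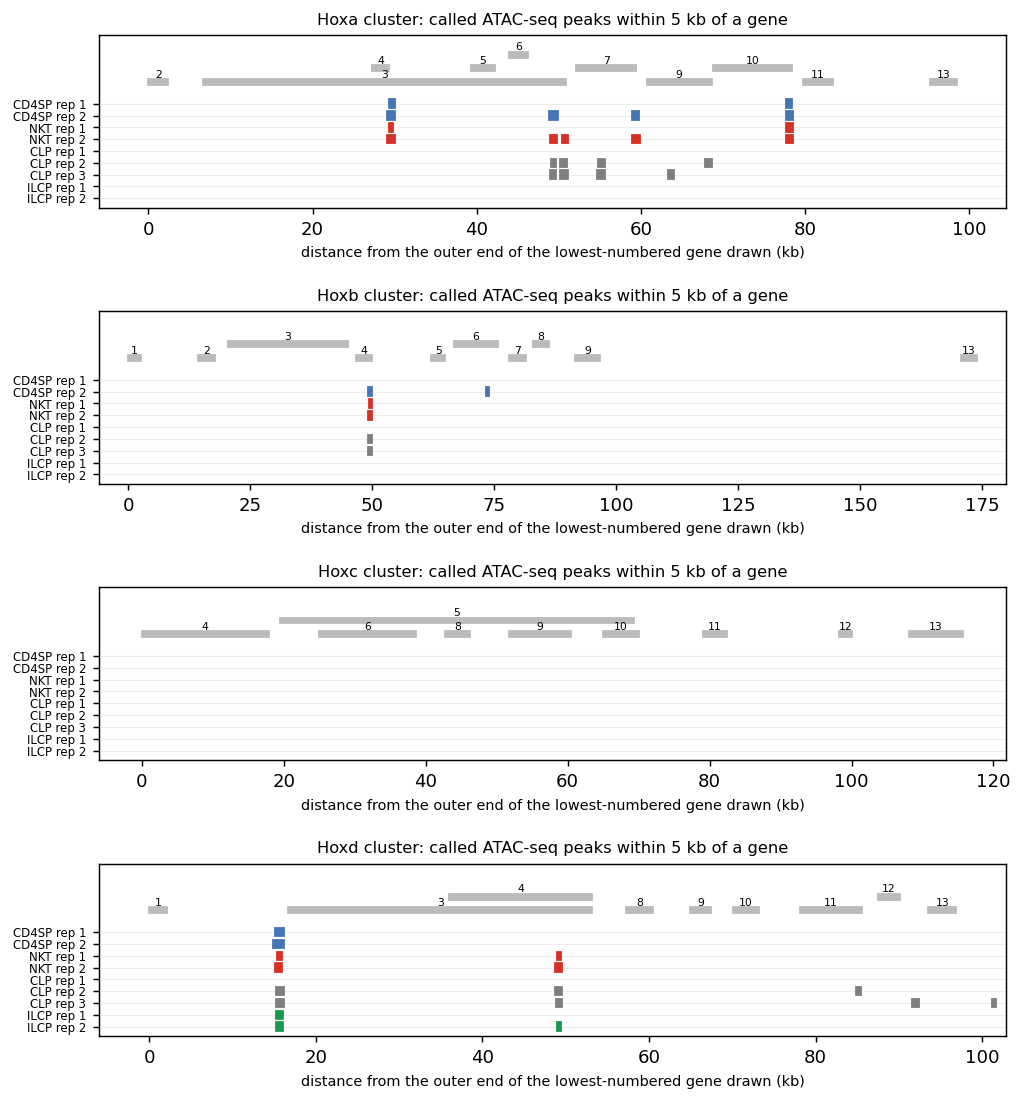
Called peaks of the 9 libraries (coloured blocks, 1 line per library) along the Hoxa, Hoxb, Hoxc and Hoxd clusters, with gene bodies as grey bars labelled by gene number, against the distance in kb from the outer end of the lowest-numbered gene drawn, for 38 genes and 15 intervals. The Hoxa peaks drawn gather at 8 places, the Hoxc panel is empty, CLP replicate 1 has no peak and ILCP has 3, all in Hoxd.

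Per library, the 39 windows held 4 and 8 peaks in CD4SP, 5 and 9 in NKT, 0, 9 and 10 in CLP, and 1 and 2 in ILCP. Within CD4SP, NKT and CLP the replicates thus differed widely, and the ILCP libraries were lower than every other library except CLP replicate 1. This order depended on the number of peaks taken. With equal numbers of peaks per library, ILCP held 1 and 2 Hox peaks and the 3 CLP libraries 0, so the difference of ILCP minus CLP turned from -4.83 to 1.5. With all peaks, it was -8 without CLP replicate 1, -3.5 without CLP replicate 2 and -3 without CLP replicate 3. Scaled to length, the Hox windows (451685 bp) held 0.886 and 1.77 peaks per 100 kb in CD4SP, where all gene windows held 2.10 and 2.38. In NKT the values were 1.11 and 1.99 against 2.18 and 2.45, and in CLP 0, 1.99 and 2.21 against 1.25, 2.51 and 2.44. In ILCP they were 0.221 and 0.443 against 1.63 and 1.59. The Hox windows were therefore below the level of all gene windows in each of the 9 libraries. The mean number of Hox peaks was 6 ± 2.83 in CD4SP (SD, n = 2), 7 ± 2.83 in NKT (n = 2), 6.33 ± 5.51 in CLP (n = 3) and 1.5 ± 0.707 in ILCP (n = 2).

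**Figure D2:**
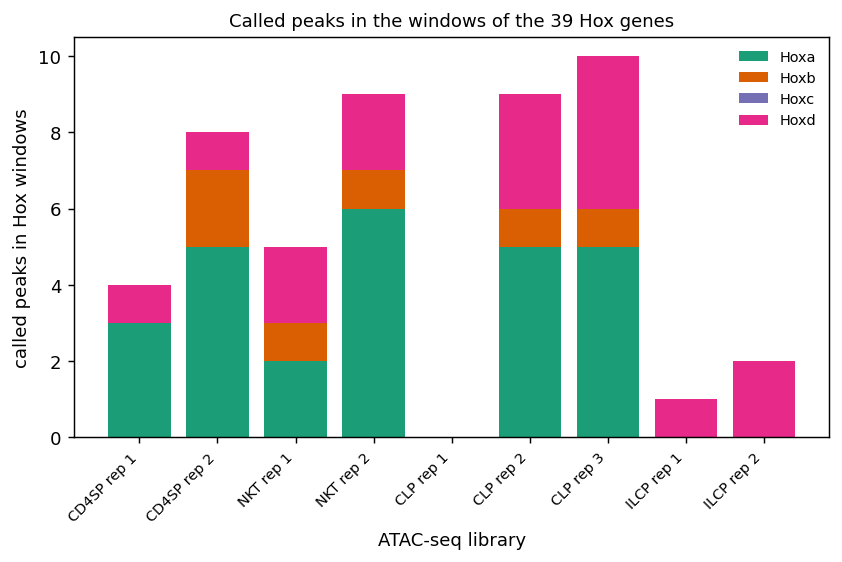
Number of called peaks in the windows of the 39 Hox genes (y axis) in each ATAC-seq library (x axis), stacked by cluster. Hoxa makes up the largest part in both CD4SP libraries, NKT replicate 2 and CLP replicates 2 and 3, the 3 ILCP peaks are all in Hoxd, and no bar holds Hoxc.

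The Hoxa cluster (chromosome 6, minus strand, 11 genes) held 26 of the 48 peaks. Its windows had 3 and 5 peaks in CD4SP, 2 and 6 in NKT, 0, 5 and 5 in CLP and 0 and 0 in ILCP. Both ILCP libraries were at 0 together with CLP replicate 1, and every thymic library was above 0.

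The thymic libraries shared 2 Hoxa intervals that no bone marrow library had. Hoxa-2 (chr6:52191449-52192509, 226 bp from the start of Hoxa4, a paralogue of Hoxb4) was open in all 4 thymic libraries and in none of the 5 from bone marrow. Its peaks ranked 62.4% and 58.3% from the top by score in CD4SP and 90.3% and 59.2% in NKT, where a rank of 100% is the weakest peak of the library. Hoxa-9 (chr6:52240041-52240991, over the start of Hoxa10, a posterior gene active in early progenitors) had the same pattern, with ranks of 76.7%, 59.9%, 81.3% and 88.3%. An interval open in all thymic and no bone marrow libraries was not rare, as 7.04% of all intervals had this pattern against 2 of 16 here. With equal numbers of peaks per library, or the upper 50% of each list, 0 Hox intervals and 0 windows had it. At start sites the same held for Hoxa4 and Hoxa10 (2 of 39, against 1.30% of all genes), and for gene windows for Hoxa4 and Hoxa11 (2 of 39, against 1.35%). The reverse pattern, open in all bone marrow and no thymic libraries, was found in 0 Hox intervals, windows or start sites (2.04%, 1.27% and 0.980% over all features). The Hoxa11 window was open only through Hoxa-9, which lies in the 5 kb beside that gene.

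Other Hoxa intervals were open in CLP replicates 2 and 3. Hoxa-3 (chr6:52211204-52212298) and Hoxa-4 (chr6:52212514-52213588) lay side by side at the most upstream start of Hoxa3. Hoxa-4, over that start, was nearer to the top in CLP, with ranks of 64.0% and 51.8% in replicates 2 and 3 and 86.0% in NKT replicate 2, its only thymic library. Hoxa-3, in an intron, ranked 90.6% and 90.1% in the same CLP libraries but 51.6% in CD4SP replicate 2 and 59.7% in NKT replicate 2. The order of the neighbours by rank was thus opposite in CLP and in NKT replicate 2.

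Hoxa7, a gene of the middle of the cluster, was open at different starts in different cells. Hoxa-6 (chr6:52221285-52222278), 73 bp from the start at the outer end of the gene, was open in CD4SP replicate 2 (69.3%) and NKT replicate 2 (68.2%). Hoxa-5 (chr6:52217033-52218071), 47 bp from an alternative start within the gene, was open in CLP replicates 2 and 3, with ranks of 74.0% and 56.8%, and in no other library. The stretch of Hoxa-5 printed above lies within this interval and is 68.5% G and C. Hoxa9, a gene known for its part in progenitors and in leukaemia, had start-site peaks in CLP replicates 2 and 3 alone, but at different starts. Hoxa-8 (chr6:52230205-52231047) was open in CLP replicate 2 with a rank of 80.6%, and Hoxa-7 (chr6:52225714-52226484, over coding sequence) in CLP replicate 3 with a rank of 80.3%. These 2 intervals were each called in 1 library only. Of all genes, 2.52% had a start site open in CLP replicates 2 and 3 and in no other of the remaining libraries, and of all intervals 14.1%.

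Markers of other cells were counted in the same libraries, in which the share of all protein-coding genes with an open start was 38.9%, 57.1% and 56.5% in CLP replicates 1, 2 and 3. The 4 myeloid markers (Mpo, Csf1r, Elane and Cebpe) had 0 open starts in CLP replicate 1 and 1 in each of replicates 2 and 3 (a different gene in each), and 0 in all other libraries. The 4 erythroid and megakaryocyte markers (Gata1, Klf1, Epor and Pf4) had 1, 3 and 2, against 1 to 3 in the thymic and 1 and 1 in the ILCP libraries. The 5 B lineage markers had 2, 3 and 3, against 2 to 3 in the thymic and ILCP libraries, with Cd79a at 0 throughout, and the 4 stem cell markers had 2 in each bone marrow library and 1 in each thymic one. The part of these cells, and of the length of the peak list, in the Hox result was not tested.

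The Hoxb cluster (chromosome 11, 96194316 to 96368256, plus strand, 10 genes) held 6 peaks in 2 intervals. Its windows had 0 and 2 peaks in CD4SP, 1 and 1 in NKT, 0, 1 and 1 in CLP and 0 and 0 in ILCP. Hoxb-2 (chr11:96318280-96319079), 412 bp downstream of the start of Hoxb4, a gene used to expand blood stem cells, was open in CD4SP replicate 2, both NKT libraries and CLP replicates 2 and 3. It was among the weakest peaks of each library, with ranks of 91.2% in CD4SP, 92.6% and 88.7% in NKT and 98.6% and 89.6% in CLP. Hoxb-1 (chr11:96294357-96295002), in an intron of Hoxb6, was called in CD4SP replicate 2 alone at 92.3%.

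One more Hoxb site lay just beyond the limit of 5 kb. A peak between Hoxb5 and Hoxb4, 5115 to 5232 bp from the nearest Hox gene, was called in CD4SP replicate 2, both NKT libraries and CLP replicate 3, with ranks from 61.9% to 90.9%. Beyond Hoxd13, CLP replicate 2 had a peak at 6022 bp, and CLP replicates 2 and 3 had one at 11675 and 11743 bp with ranks of 36.0% and 39.3%. Just inside the limit, the peak farthest from a gene was Hoxd-1 at 4294 bp, and 38 of the 48 peaks overlapped a gene body.

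The Hoxc cluster (chromosome 15, 102921103 to 103036852, plus strand, 9 genes) had 0 peaks in every library, in windows of 119933 bp. Its flanking gene Calcoco1, beyond Hoxc13, was open at its start in all 9 libraries, and Smug1, beyond Hoxc4, in 8, all but CLP replicate 1. The lack of peaks thus did not extend to these neighbours. Next to Hoxa and Hoxd, Skap2 and Mtx2 were also open in 8 libraries, and Skap1, next to Hoxb, in 2, whereas the homeobox genes Evx1 and Evx2, which adjoin the posterior ends of Hoxa and Hoxd, were open at their starts in 0.

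The Hoxd cluster (chromosome 2, 74668310 to 74765142, plus strand, 9 genes) held 16 peaks, and it was the cluster in which ILCP had peaks. Its windows had 1 and 1 peaks in CD4SP, 2 and 2 in NKT, 0, 3 and 4 in CLP and 1 and 2 in ILCP. Hoxd-5 (chr2:74748975-74750319) was the most widely shared Hox interval, open in 8 libraries, all but CLP replicate 1. It lay 533 to 770 bp beyond the 3′ end of Hoxd3, in an exon of the long non-coding gene Haglr and 859 bp from a Haglr start. Its ranks were 55.3% and 40.5% in CD4SP, 80.5% and 75.1% in NKT, 67.8% and 81.2% in CLP replicates 2 and 3 and 65.9% and 71.7% in ILCP. The peak of CD4SP replicate 2 was the only Hox peak of the 48 in the upper 50% of its library.

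Hoxd-4 (chr2:74715567-74716400) was open in both NKT libraries and in neither CD4SP library. It was also open in CLP replicates 2 and 3 and in ILCP replicate 2. The interval lay in introns of long Hoxd3 and Hoxd4 transcripts and in an exon of the antisense gene Hoxd3os1, 13 bp from a start of that gene and 4054 bp from the nearest Hoxd4 start. The ranks were 87.7% and 68.2% in NKT, 89.7% and 92.9% in CLP and 63.3% in ILCP. It was the 1 Hox interval of 16 that was open in every NKT and no CD4SP library, against 4.30% of all intervals, and through it Hoxd4 was the 1 gene window of 39, against 1.22% of all genes. Both counts became 0 with equal numbers of peaks and in the upper 50% of each list, while the intervals became 2 without CD4SP replicate 2 or NKT replicate 1 and the windows 3 without CD4SP replicate 2. No Hox start site was open in every NKT and no CD4SP library, which 0.811% of all start sites were. No Hox interval, window or start site was open in every CD4SP and no NKT library (3.46%, 0.337% and 0.260% in all intervals, windows and start sites).

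The posterior end of Hoxd had 3 weak peaks in CLP alone. Hoxd-3 (chr2:74679681-74680357), 462 bp from a start of Hoxd11, was called in CLP replicate 2 at 94.4%. Hoxd-2 (chr2:74672767-74673549) and Hoxd-1 (chr2:74663453-74664016), between genes beside Hoxd12 and Hoxd13, were called in CLP replicate 3 at 85.9% and 92.4%. None of the 3 was called in a second CLP library. The Hoxd12 window, which holds Hoxd-2 and Hoxd-3, was the 1 window open in CLP replicates 2 and 3 and in no other remaining library, against 2.01% of all genes.

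**Figure D3:**
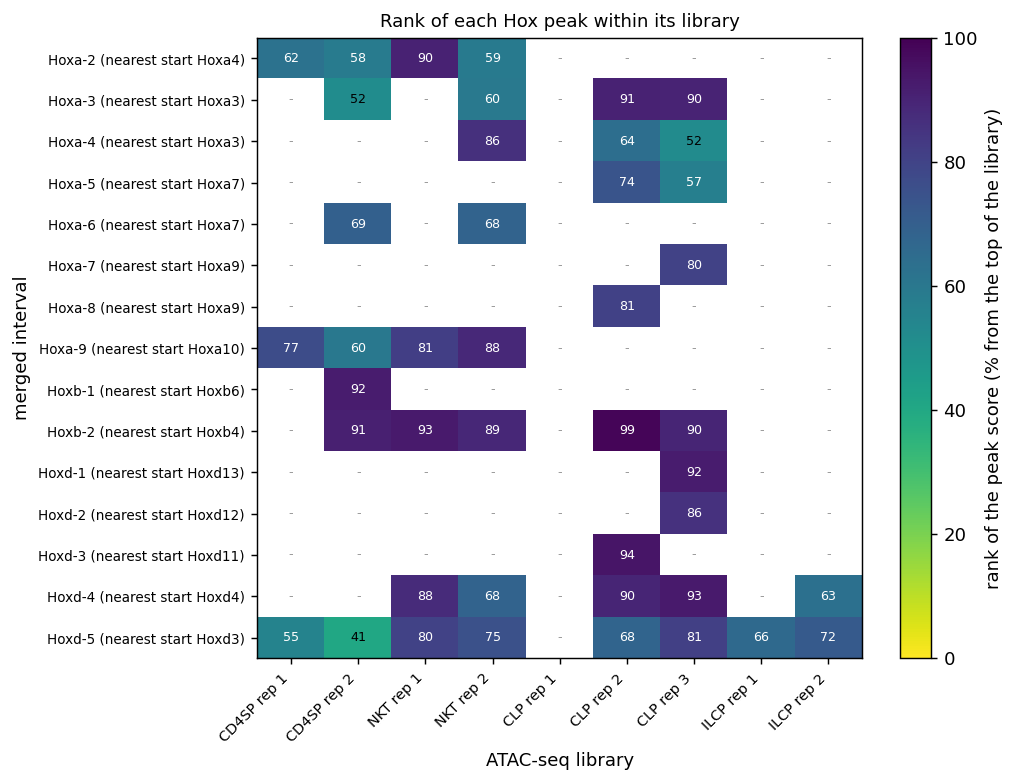
Rank of the peak score within its library, in % from the top (colour and number), for 15 merged Hox intervals (y axis, with the gene of the nearest Hox start) in each library (x axis), where a dash is no called peak. Nearly all ranks are above 50%, and the lowest number, 41, belongs to Hoxd-5 in CD4SP replicate 2.

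By score, Hox peaks were weak peaks. Of the 48, 1 (2.08%) was in the upper 50% of its library, and the median rank was 75.9% from the top. The median was 59.7% and 59.8% in the CD4SP libraries, 87.7% and 74.2% in NKT, 80.6% and 83.5% in CLP replicates 2 and 3 and 65.9% and 67.5% in ILCP. These ranks were taken over lists of different length. The peaks were 813 bp wide at the median. Scores were not compared between libraries, since the depth of each library, needed to scale them, is not known.

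Replicates of a cell type shared part of these intervals. All 4 Hox peaks of CD4SP replicate 1 were also in replicate 2, where 92.4% of replicate 1 peaks in the same range of ranks were shared. In the other direction, 4 of the 8 Hox peaks of CD4SP replicate 2 were in replicate 1 (72.0% for peaks of the same ranks). All 5 of NKT replicate 1 were in NKT replicate 2 (70.3%), and 5 of the 9 of NKT replicate 2 were in replicate 1 (63.1%). For CLP, 7 of the 10 of replicate 3 were in replicate 2 (86.2%) and 7 of the 9 of replicate 2 were in replicate 3 (68.8%). In CLP replicate 1, which had none, 15.3% of the peaks of CLP replicate 3 and 7.62% of those of CLP replicate 2 with ranks like the Hox peaks were found. Most peaks of CLP replicates 2 and 3 with such ranks, Hox or not, were thus absent from that list. For ILCP, the same peaks of CLP replicate 3 were found in 24.9% and 23.9% of cases in replicates 1 and 2, against 1 and 2 of 10 Hox peaks, and those of CLP replicate 2 in 19.4% and 18.9%, against 1 and 2 of 9. The ILCP lists were short as well, and their part in the lower number of Hox peaks was not tested.

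The study set NKT against CD4SP and ILCP against CLP, to compare PLZF-expressing cells with counterparts from the same tissue. NKT and CD4SP had the same mean number of Hoxa peaks, 4 ± 2.83 and 4 ± 1.41 (SD, n = 2 each), a difference of 0 (two-sided exact permutation test, p = 1) that became 2 without NKT replicate 1 and -2 without NKT replicate 2. For Hoxb the means were 1 and 1 (exact p = 1), with a difference of -1 without CD4SP replicate 1 and 1 without CD4SP replicate 2, and for Hoxc 0 and 0. For Hoxd the mean was 2 in NKT and 1 in CD4SP, and the groups did not overlap. The direction turned with equal numbers of peaks per library (-1) and in the upper 50% of each list (-0.5). The exact p of 0.333 is the smallest that 2 libraries against 2 can give, and the adjusted value was 0.96 over the 12 tests of 4 clusters and 3 comparisons (Benjamini-Hochberg). Among bins of 100 kb across the genome, 10.7% had NKT above CD4SP with no overlap and 8.12% had the opposite, so separations of this kind were common.

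ILCP had 0 Hoxa peaks in both libraries, and CLP had a mean of 3.33 ± 2.89 (SD, n = 3). The difference of -3.33 had an exact permutation p of 0.4 (adjusted 0.96), and 0.1 is the smallest this design can give. The CLP value of 0 in replicate 1 made the groups overlap. Without that replicate, CLP had 5 and 5 Hoxa peaks, and 5 of the 16 Hox intervals (among them Hoxa-3, Hoxa-4, Hoxa-5 and Hoxb-2) were open in both remaining CLP libraries and in no ILCP library, against 22.2% of all intervals. Start sites, among them those of Hoxa3, Hoxa7, Hoxa9 and Hoxb4, had the same pattern (5 of 39, against 10.3% of all genes), as did 10 of 39 gene windows, against 9.29%. Those 10 windows overlap and share the same few intervals. With all 3 CLP libraries, 0 of 39 windows, 0 start sites and 0 intervals were open in every CLP and no ILCP library (2.08%, 1.75% and 5.97% over all features). The difference in Hoxb was -0.667 (exact p = 0.4, adjusted 0.96) and -1 without CLP replicate 1, and, like that in Hoxa, it became 0 with equal numbers of peaks and in the upper 50% of each list. In Hoxd it was -0.833 (exact p = 0.8, adjusted 1). It was -2 without CLP replicate 1, -0.5 without CLP replicate 2 and 0 without CLP replicate 3. With 20 kb on each side of the genes it was -1.83, and it turned to 1.5 with equal numbers of peaks (exact p = 0.1) and to 0.00498 per 10000 peaks. Hoxc was 0 in both groups. No Hox window, start or interval was open in every ILCP and no CLP library (0.743%, 0.346% and 6.34% over all features).

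Whether the PLZF-expressing type differed from its counterpart to the same extent in both tissues was tested directly, with all 3 CLP libraries. The thymic change (NKT minus CD4SP) exceeded the bone marrow change (ILCP minus CLP) by 3.33 peaks in Hoxa (exact permutation within tissues, 60 arrangements, p = 0.383) and by 1.83 in Hoxd (exact p = 0.267), neither beyond the spread of the libraries. It was not repeated without CLP replicate 1, where the bone marrow change was -5 in Hoxa and -2 in Hoxd, in place of -3.33 and -0.833. Taking tissues as groups, bone marrow had 2 ± 2.74 Hoxa peaks per library (SD, n = 5) and thymus 4 ± 1.83 (n = 4), a difference of -2 (exact p = 0.31, adjusted 0.96), or -1.5 without CLP replicate 1 (exact p = 0.514). It became -0.25 with equal numbers of peaks and 0 in the upper 50% of each list. For Hoxb the difference was -0.6 (exact p = 0.365, adjusted 0.96), with -0.5 without CLP replicate 1, -0.267 without CD4SP replicate 2 and -0.933 without CD4SP replicate 1. It became 0 under both peak limits, and -1.15 (exact p = 0.175) with 20 kb on each side of the genes or over the whole cluster. For Hoxc it was 0. For Hoxd it was 0.5 (exact p = 0.611, adjusted 1), 1 without CLP replicate 1, 0 without CLP replicate 3, 0.1 with equal numbers of peaks, -0.25 in the upper 50% of each list and 1.1 with 20 kb on each side. Tissue and developmental stage cannot be told apart here, since both bone marrow types are progenitors and both thymic types are T cells.

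By the stricter count of gene windows open in every library of a cell type, CD4SP had 7 of 39 (60.0% of all genes), NKT 8 (61.2%), CLP 0 (48.9%) and ILCP 1 (50%), which was Hoxd3. In at least 1 library, the windows open were 14 in CD4SP (65.0% of all genes), 13 in NKT (66.9%), 14 in CLP (68.9%) and 2 in ILCP (58.1%), namely Hoxd3 and Hoxd4. Without CLP replicate 1, CLP had 12 (65.0%). At start sites, CD4SP had 3 (among them Hoxa4 and Hoxa10, against 49.6%), NKT 3 (Hoxa4, Hoxa10 and Hoxb4, against 50.1%), CLP 0 (38.8%) and ILCP 0 (38.6%). Without CLP replicate 1, CLP had 5 (54.7%). In at least 1 library, 6 Hox starts were open in CD4SP (54.7%), 6 in NKT (56%) and 6 in CLP (58.9%). No Hox start was open in even 1 ILCP library, which 45.8% of all start sites were.

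Of the 16 intervals, 4 were open in every CD4SP library (41.5% of all intervals), 5 in every NKT library (42%), 0 in every CLP library (25.5%) and 1 in every ILCP library (29.4%). Open in at least 1 library were 8 in CD4SP (55.6%), 9 in NKT (57.1%), 12 in CLP (62.4%) and 2 in ILCP (40.7%). CLP thus had the most Hox intervals of the 4 types by the looser count and the fewest by the stricter one, which CLP replicate 1 set to 0. Without it, 7 intervals were open in both other CLP libraries (50.2%).

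Other homeobox genes gave a comparison of like genes. Among 63 such genes (Dlx, Irx, Lhx, Nkx and related families), 5 and 9 had an open start in CD4SP, 6 and 9 in NKT, 6, 30 and 26 in CLP and 10 and 6 in ILCP. As shares, Hox and other homeobox genes were close in the thymic libraries, at 7.69% and 15.4% against 7.94% and 14.3% in CD4SP and at 7.69% and 15.4% against 9.52% and 14.3% in NKT. In CLP replicates 2 and 3 they stood apart, with 15.4% and 12.8% of Hox starts against 47.6% and 41.3% of the others. In ILCP the shares were 0% and 0% against 15.9% and 9.52%. These differences between lists were not tested. Over all 9 libraries, 8 of 39 Hox starts (20.5%) and 33 of 63 others (52.4%) were open at least once. Dlx6 and Nkx6-1 were open in the 5 bone marrow libraries and in no thymic one, as were 0.980% of all genes. Alx1 was open in the 3 CLP libraries and in no other, and 1.75% of all genes were open in every CLP and no ILCP library. Lhx2 was open in the 4 thymic libraries and CLP replicates 2 and 3 but in no ILCP library (5.22% of all genes, CLP replicate 1 left out). Lhx4 was open in the 4 thymic libraries and CLP replicate 2 but in no ILCP library, a pattern whose share was not counted.

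**Figure D4:**
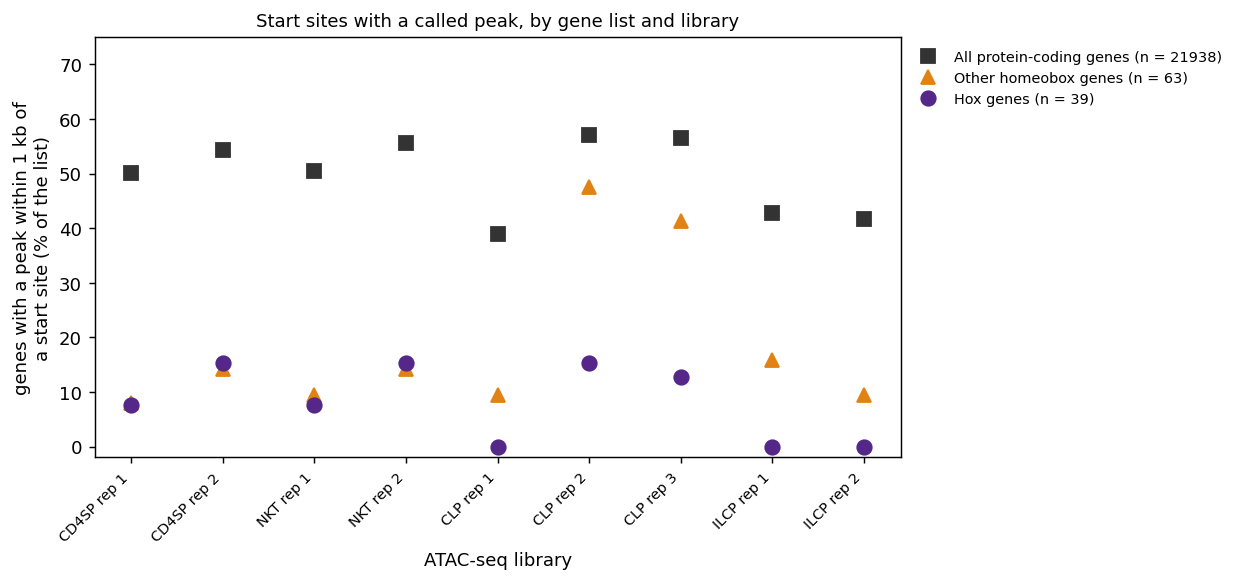
Share of genes with a called peak within 1 kb of a start site (y axis, % of the list) in each library (x axis), for the 39 Hox genes, 63 other homeobox genes and all 21938 protein-coding genes. Both homeobox lists lie far below all genes in the thymic libraries, while in CLP replicates 2 and 3 the other homeobox genes are at 47.6% and 41.3% and the Hox genes at 15.4% and 12.8%.

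Genes of proteins that act with or on the Hox genes were mostly open at their starts. Of all protein-coding genes, 64.0% were open at the start in at least 1 library and 31.8% in all 9. All 9 TALE cofactor genes were open in at least 1 library, and 3 in all 9, among them Pbx4 and Pknox1. Meis1, a partner of Hoxa9 in progenitors, was open in all 5 bone marrow libraries and in none of the 4 thymic ones, and Meis2 in 4 bone marrow libraries (all but CLP replicate 1) and in no thymic one. Meis3 was open in both NKT libraries, CD4SP replicate 2 and CLP replicates 2 and 3 but in neither ILCP library. Pbx2 was open in both CD4SP libraries, NKT replicate 2 and CLP replicate 3 but in neither ILCP library. The share of all genes open in every library of 1 thymic type and in no ILCP library was not counted. The caudal genes Cdx1, Cdx2 and Cdx4, upstream regulators of Hox clusters, were open at their starts in 0 libraries.

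On the trithorax side, all 8 genes were open in at least 1 library and 4 in all 9, beside the 64.0% and 31.8% of all genes. Kmt2b, Ash2l, Dot1l and Psip1 were open in all 9, Kmt2a in 6 (both CD4SP libraries, NKT replicate 2, CLP replicates 2 and 3 and ILCP replicate 2). Wdr5 was open in all 4 thymic libraries and CLP replicates 2 and 3 but in neither ILCP library, as were 5.22% of all genes with CLP replicate 1 left out. Rbbp5 was open in both CD4SP libraries, NKT replicate 2 and CLP replicate 2 but in neither ILCP library. On the Polycomb side, 15 of 16 genes were open in at least 1 library and 9 in all 9, beside the same shares of all genes, among them the core subunits Ezh2, Eed and Suz12 and the ubiquitin ligase Rnf2. Ezh1 and Cbx7 were open in all 4 thymic libraries and in none of the 5 from bone marrow. Cbx6 had the pattern of Wdr5, open in all 4 thymic libraries and CLP replicates 2 and 3 but in no ILCP library. Cbx2 was open in both NKT libraries, CD4SP replicate 2 and CLP replicates 2 and 3 but in no ILCP library. Pcgf2 was open in 0. Of all genes, 1.30% had a start site open in every thymic and no bone marrow library, like Ezh1 and Cbx7, and 0.980% the reverse, like Meis1.

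Hox intervals were rich in CpG. In the central 200 bp of the 16 intervals the median content of G and C was 62.5% (range 49% to 74.5%), against 49.5% over the 71398 intervals with sequence, and the median ratio of observed to expected CpG was 0.813 against 0.257. CpG-rich starts are usually open in many cell types. A start was called CpG-rich when the stretch from 250 bp before to 50 bp after it had at least 50% G and C and a CpG ratio of at least 0.6, which 30 of 39 Hox genes (76.9%), 47 of 63 other homeobox genes (74.6%) and 54.5% of all genes met. Of the CpG-rich genes, 7 of the 30 Hox genes (23.3%) had any start open in at least 1 library. The counterparts were 28 of the 47 other homeobox genes (59.6%) and 91.0% of all CpG-rich genes. In genes with several starts, the open start need not be the CpG-rich one. In every CD4SP library, 3 of the 30 Hox genes (10%) had an open start, against 4 of the 47 other homeobox genes (8.51%) and 75.8% of all. In every NKT library the shares were 6.67%, 8.51% and 75.8% in the same order. They were 0%, 8.51% and 59.5% in every CLP library and 0%, 6.38% and 59.1% in every ILCP library.

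Letters of known motifs were counted on both strands in the central 200 bp of each interval. No searched string is contained in another. The Runx letters TGTGGT or TGCGGT were present in 1 of 16 Hox intervals (Hoxd-1), against 28.5% of all intervals. The GATA letters AGATAA or TGATAA were in 2 (15.8% of all), the Ets letters AGGAAG or CGGAAG in 5 (44.2%), the Meis letters TGACAG in 3 (16.8%) and the Pbx-Hox letters TGATTNAT in 0 (2.0%). The Meis letters occurred in Hoxa-4, Hoxb-2 and Hoxd-5, and in the Hoxd-5 sequence printed above they stand at chr2:74749636-74749641 on the plus strand. The CTCF core, written as CCAC, any base, AG, any 2 bases and GGC, was found in 1 interval (3.25% of all), the thymic interval Hoxa-9 at Hoxa10. That match is printed because it is the only one of its kind among the 16, at chr6:52240541-52240552 on the minus strand.
Hoxa-9 CTCF core: CCACGAGATGGC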

How the data were processed

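Accessibility was measured by ATAC-seq in 9 libraries of sorted CD4SP, NKT, CLP and ILCP cells, grouped by the sample titles. The libraries of Runx1 chromatin immunoprecipitation were not used here. Reads of 50 bp had been aligned to mm10 by the authors (bowtie, up to 2 mismatches). MACS had then been run on 1 library at a time, and the deposited files hold the position of each peak and its score from the peak caller, which was at least 120 throughout. The submitters' processing notes also name Picard and HOMER. The MACS version and settings, and the depth of each library, are not given in the sources used here, so no counting intervals could be given and scores were used only as ranks within a library. Every list ended at about the same lowest score.

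Peak starts were converted to positions counted from 1. Windows and start sites came from GENCODE M21 and sequence from the GRCm38.p6 genome of RefSeq. Overlapping peaks (at least 1 bp) of all libraries were merged, using Python 3.11.15, numpy 2.4.6 and pandas 2.3.3. Mean peak numbers per cluster were compared by two-sided exact permutation of library labels, with Benjamini-Hochberg adjustment over 12 tests in statsmodels 0.14.6. The study speaks of biological replicates, but the labels do not say whether these were separate animals, so p-values measure the spread between these libraries. The code was tested on simulated data. Counts of open genes and intervals were set beside the share of all genes, or of all intervals, called by the same rule. All 39 Hox genes entered the counts, and a few items are not reported here by name. Values per library were given for genes with a peak within 1 kb of a start and for intervals open in every library of a cell type, and other intervals were described after their values were seen. Pathway and marker genes were read at start sites, with the gene windows of a few markers added. They were named when open in every library of one cell type and in none of another, or after their values were seen. The members and lists were chosen with earlier results of these data known. Alternatives were equal numbers of peaks per library (19343), the upper 50% of peaks, other windows (gene bodies, 20 kb, whole clusters, 2 kb at starts), peak midpoints, base pairs covered, peaks per 10000, blocks by replicate number, any in place of every library, whole intervals for motifs and each library left out.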

Additional observations from a re-analysis of the deposited data

How the results depend on the processing

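Of 409 recomputed values, 328 kept their direction and side of the threshold (totals: moved by less than the spread between libraries; counts: stayed within 1.5 times; a difference of 0 has no direction), 70 moved and 11 changed sign, and no test passed 0.05 under any alternative. Much of this was fixed by the design. The smallest possible p is 0.333 for NKT minus CD4SP and 0.1 for ILCP minus CLP, so these permutation tests could not pass 0.05. Hoxc held no peak, and for a cluster difference of 0 any new value was counted as kept. The number of kept values is therefore no measure of stability. Hox peaks rank low, so equal numbers of peaks per library and the upper 50% of each library removed nearly all of them. With equal numbers the Hoxd difference became -1 for NKT minus CD4SP and 1.5 for ILCP minus CLP (exact permutation p = 0.1), the Hoxa and Hoxb differences of ILCP minus CLP and the Hoxb difference between tissues became 0, the Hoxa difference between tissues became -0.25, and the totals became -1.5 (NKT minus CD4SP), 1.5 (ILCP minus CLP) and -0.15 (between tissues). With the upper 50% the Hoxd difference became -0.5 for NKT minus CD4SP, 0 for ILCP minus CLP and -0.25 between tissues, the Hoxa and Hoxb differences of ILCP minus CLP and between tissues became 0, and the totals became -0.5, 0 and -0.25. Per 10000 peaks, ILCP minus CLP in Hoxd became 0.00498, and by base pairs the total of NKT minus CD4SP became -60 bp. Leaving out each library in turn, the Hoxd difference ranged from -2 to 0 for ILCP minus CLP (0 without CLP replicate 3) and from 0 to 1 between tissues (0 without CLP replicate 3), the Hoxa difference of NKT minus CD4SP ranged from -2 (without NKT replicate 2) to 2 (without NKT replicate 1) around 0, and the total of NKT minus CD4SP ranged from -1 (without CD4SP replicate 1 or NKT replicate 2) to 3.

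Windows open in every library changed with equal numbers to 1 (CD4SP) and 0 (NKT), with the upper 50% to 0 (CD4SP, NKT and ILCP), with gene bodies alone to 4 (CD4SP) and 0 (ILCP), and in any library to 14, 13, 14 and 2 (CD4SP, NKT, CLP and ILCP). Leaving out a library they ranged from 7 to 14 (14 without CD4SP replicate 1), 8 to 13 (13 without NKT replicate 1), 0 to 12 (12 without CLP replicate 1) and 1 to 2 (2 without ILCP replicate 1). Start sites became 0 in CD4SP and NKT under both peak limits and 6 in CD4SP, NKT and CLP in any library, and leaving out the same libraries they ranged from 3 to 6, 3 to 6 and 0 to 5. Genes open in NKT and not CD4SP became 0 under both peak limits and ranged from 1 to 3 (3 without CD4SP replicate 2), and those open in CD4SP and not NKT became 1 (equal numbers) or 2 (any library) and ranged from 0 to 2 (2 without CD4SP replicate 1 or NKT replicate 2). Genes open in ILCP and not CLP became 1 with equal numbers, and those in CLP and not ILCP 12 in any library, with a range from 0 to 10 (10 without CLP replicate 1). Genes in bone marrow and not thymus became 3, and in thymus and not bone marrow 4, in any library, the latter 0 under both peak limits. For intervals, NKT and not CD4SP gave 0 under both peak limits and 2 in any library, with a range from 1 to 2 (2 without CD4SP replicate 2 or NKT replicate 1). CD4SP and not NKT gave 1 with equal numbers and in any library, with a range from 0 to 1 (1 without CD4SP replicate 1 or NKT replicate 2). ILCP and not CLP gave 1 with equal numbers, and CLP and not ILCP 10 in any library, with a range from 0 to 5 (5 without CLP replicate 1). Bone marrow and not thymus gave 6 and thymus and not bone marrow 4 in any library, the latter 0 under both peak limits. In whole intervals the Runx, GATA, Ets and Meis letters were present in 6, 6, 13 and 6 of 16 (69.7%, 62.9%, 85.8% and 57.7% of all intervals).

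Replicate numbers are shared by the groups, but nothing in the labels pairs the libraries. Deviations of same-numbered libraries correlated at 0.177 for NKT and CD4SP and at -0.0136 and -0.00492 for ILCP and CLP over 71400 intervals. With labels permuted only within a replicate number (a replicate block), no call changed, and the Hoxa differences stayed at 0, -3.33 and -2 with exact permutation p = 1, 0.5 and 0.25.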
